A study of Mus musculus with 40 samples.

Results

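The 35 genes described here are markers of B cells, T cells, cytotoxic and natural killer (NK) cells, and of the signals that bring lymphocytes together in lymph nodes. They were chosen by symbol, and all 35 were found among the 34843 symbols of the count table. They comprise 12 B cell genes, 15 T cell genes, 3 cytotoxic and NK cell genes, and 5 genes of lymphoid homing and organisation. RNA was measured in subcutaneous white fat of mice (labelled sWAT), the fat beneath the skin, in 40 samples, 8 in each of 5 groups. Mice were fed a normal diet (ND) or a high-fat diet (HFD), or were HFD-fed and given semaglutide, an agonist of the GLP-1 receptor, or tirzepatide, an agonist of the GLP-1 and GIP receptors. The fifth group was switched from HFD to ND. The labels give no strain, sex, age, dose or duration. The series title places the dietary change after incretin treatment, while the labels of the switched group name the diet change alone. Whether these mice had received a drug is therefore not known here, and every difference of this group from HFD may include it. Replicates are only called samples there, and p-values thus cover the spread among the samples given, which may be technical.

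B cells recognise antigen through surface immunoglobulin held by the CD79 pair, and T cells through a T cell receptor held by the CD3 chains. Both cell types gather in lymph nodes, where stromal cells and vessels release the chemokines CCL19 and CCL21 that draw cells bearing the receptor CCR7. In the mouse, the inguinal part of the subcutaneous fat surrounds a lymph node, and lymphocytes also lie scattered among adipocytes. The labels do not say which subcutaneous depot was taken. In bulk tissue, fewer cells of a type and less RNA per cell cannot be told apart.

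Promoters were read because most of these genes were high together in the same libraries. RefSeq promoters of GRCm38.p6, each 250 bases before to 50 after a gene's start, matched 21 of the 35 genes, some with several starts (27 windows). Those of 2 B cell receptor or co-receptor genes, a T cell receptor chain and a lymphoid organiser are shown 5′ to 3′ in the direction of the gene. They lie at chr7:24897247-24897546 on the plus strand (Cd79a), chr1:195176670-195176969 on the minus strand (Cr2), chr9:45009562-45009861 on the minus strand (Cd3e) and chr17:35194257-35194556 on the plus strand (Ltb). Capitals mark the E-box CAGGTG, or CACCTG where it lies on the other strand, the site class bound by E proteins of lymphocytes.
Cd79a: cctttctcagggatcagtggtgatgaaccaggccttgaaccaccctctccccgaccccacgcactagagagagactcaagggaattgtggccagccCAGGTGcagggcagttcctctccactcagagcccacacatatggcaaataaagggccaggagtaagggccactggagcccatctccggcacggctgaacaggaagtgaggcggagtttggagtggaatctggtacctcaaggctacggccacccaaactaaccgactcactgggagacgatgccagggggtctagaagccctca
Cr2: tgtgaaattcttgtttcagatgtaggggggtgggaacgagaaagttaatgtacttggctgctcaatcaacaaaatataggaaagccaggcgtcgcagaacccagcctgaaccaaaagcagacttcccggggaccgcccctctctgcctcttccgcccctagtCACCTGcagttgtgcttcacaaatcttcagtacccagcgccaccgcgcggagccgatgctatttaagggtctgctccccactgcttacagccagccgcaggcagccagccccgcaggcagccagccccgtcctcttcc
Cd3e: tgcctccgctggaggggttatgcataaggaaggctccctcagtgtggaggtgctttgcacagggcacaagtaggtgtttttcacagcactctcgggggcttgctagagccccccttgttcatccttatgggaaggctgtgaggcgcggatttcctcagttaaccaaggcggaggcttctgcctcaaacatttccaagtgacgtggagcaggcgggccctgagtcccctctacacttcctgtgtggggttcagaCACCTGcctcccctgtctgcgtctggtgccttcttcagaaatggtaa
Ltb: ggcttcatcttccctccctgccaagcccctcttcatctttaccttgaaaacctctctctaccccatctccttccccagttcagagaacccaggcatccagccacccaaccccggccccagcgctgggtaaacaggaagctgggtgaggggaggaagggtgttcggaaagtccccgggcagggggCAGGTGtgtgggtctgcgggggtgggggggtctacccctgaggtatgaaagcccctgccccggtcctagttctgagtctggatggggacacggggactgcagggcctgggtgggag
The E-box, searched on both strands, was present in 14 of the 21 genes with a window, among them 6 of 7 B cell genes. Each window shown holds it, so they do not stand for all. It was absent from every window of Pax5, Cd8a, Il7r, Foxp3, Nkg7, Ccl21a and Ccl19. Over all 27025 genes of the promoter table, 22.6% held it in at least 1 window. The immunoglobulin octamer ATGCAAAT was in 0 of the 27 windows and in 1.74% of all 32851. A match is a description of letters and not a site of binding.

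Libraries held 2115471 to 7445548 counts. After scaling to CPM (counts relative to the TMM-scaled library size), 4 libraries stood apart, ND 5 and semaglutide 1, 3 and 8. They are called the lymphoid-rich libraries below. They were known from earlier results to be high in lymphocyte genes. Their levels of the B cell, T cell and homing genes are thus a description and carry no test. The 11 B cell genes without Ighm summed to 1048 CPM in ND 5 and to 1147, 572 and 640 CPM in semaglutide 1, 3 and 8. The other 36 libraries lay between 19.0 and 56.2 CPM, with a median of 29.1. No HFD, tirzepatide or diet-switch library was among the 4.

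**Figure D1:**
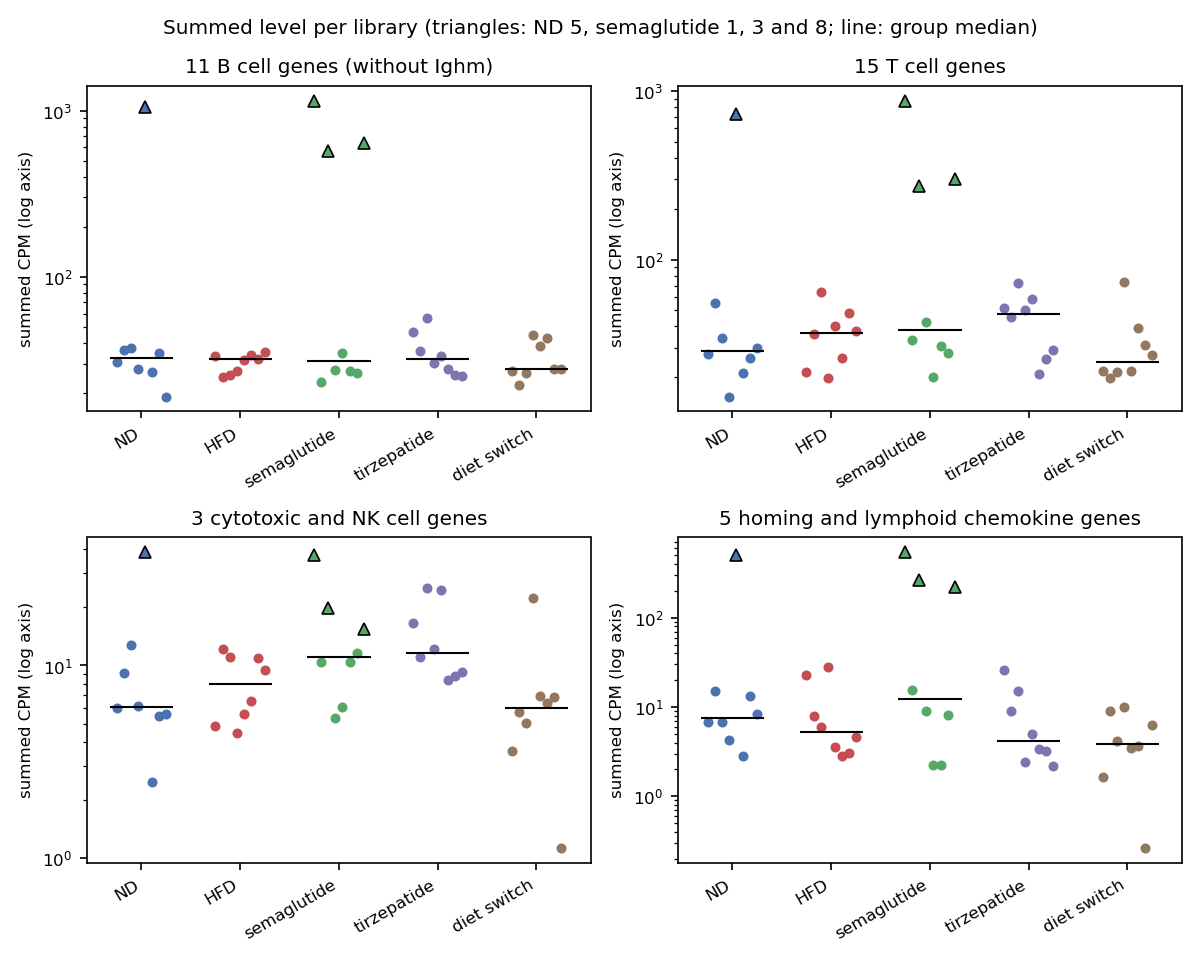
Summed CPM of 4 groups of genes (log axis) in each of the 40 libraries, by group. Triangles are ND 5 and semaglutide 1, 3 and 8, circles the other 36 libraries, and lines the group medians. B cell, T cell and homing genes lie far above the other libraries in the 4 triangles, while the cytotoxic and NK cell genes overlap.

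The T cell genes and the homing genes were also high in the same 4 libraries. The 15 T cell genes summed to 272 to 876 CPM there, against 15.3 to 73.1 CPM in the other 36. The 5 homing genes summed to 220 to 541 CPM against 0.263 to 27.8 CPM. Of the 35 genes, 27 were higher in each of the 4 libraries than in every other library, and 27 had over 50% of their counts from all 40 libraries in these 4. The shares of all genes of the count table that did so are not given here, so both numbers describe the 35 genes alone. Without Ighm, the genes took 0.120 to 0.279% of all counts in the 4 libraries and 0.00486 to 0.0177% in the others. The ratio of B cell sums without Ighm to T cell sums ran from 1.31 to 2.14 in the 4 and from 0.397 to 1.83 in the rest, so these ranges overlap.

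**Figure D2:**
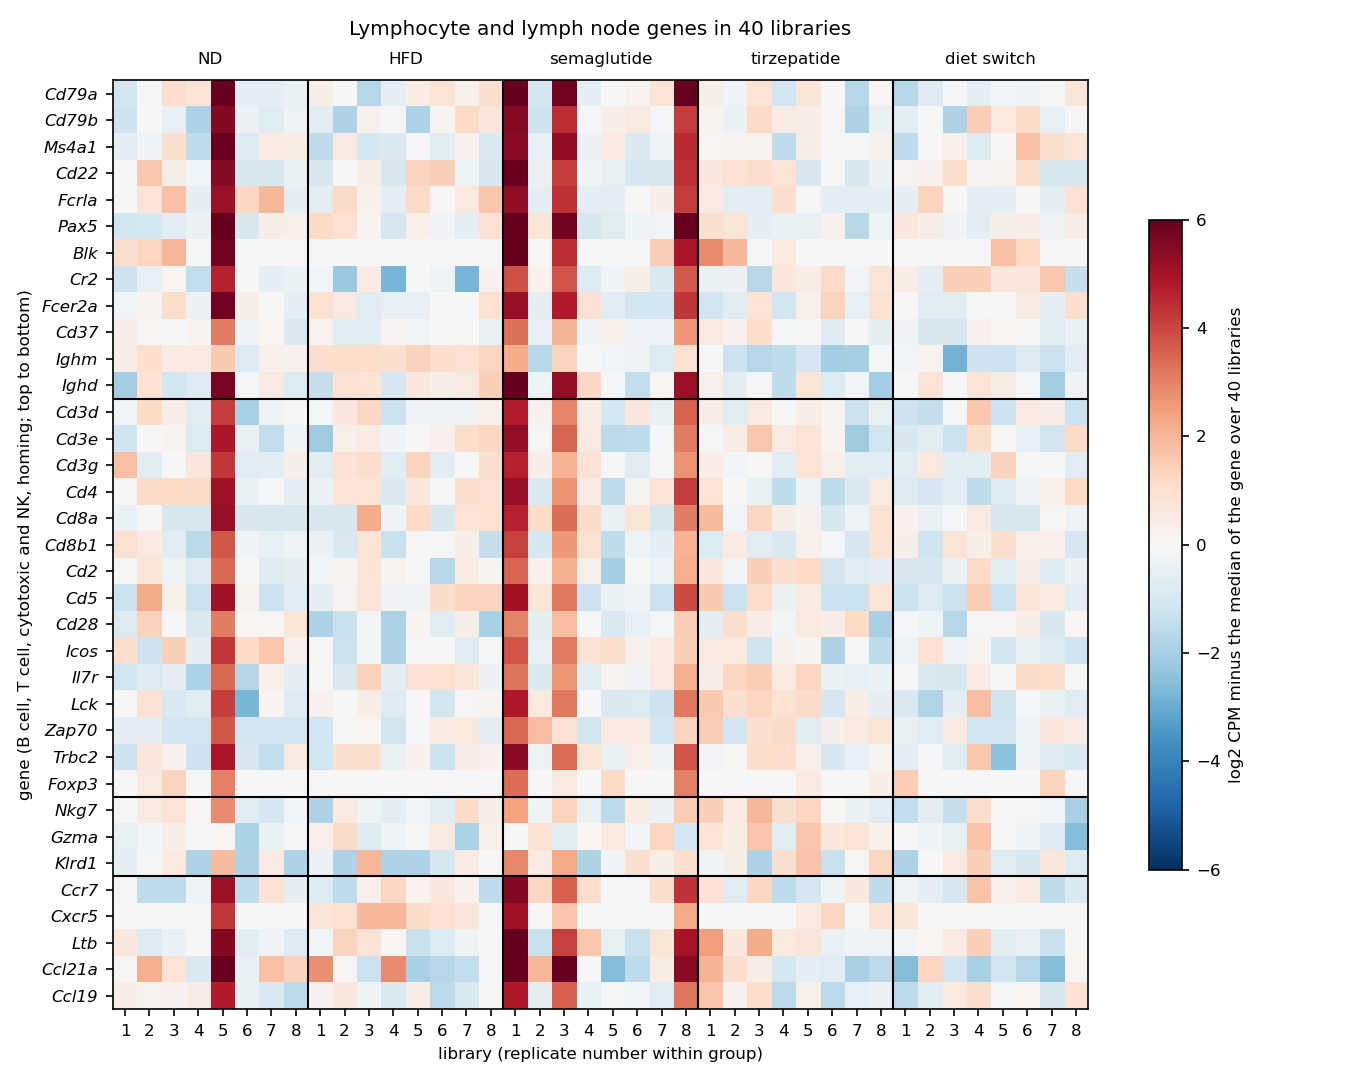
Log2 CPM of the 35 genes in 40 libraries, less each gene's median over the libraries. Columns are libraries by group and rows are genes, from B cell genes at the top through T cell, cytotoxic and NK cell, to homing genes at the bottom. ND 5 and semaglutide 1, 3 and 8 are dark red columns, the row of Ighm is less contrasted, and that of Gzma does not follow them.

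Among the B cell genes, Cd79a, a signalling chain of the B cell receptor, lay at 90.3 to 220 CPM in the 4 libraries and at most at 2.86 CPM elsewhere. The 4 libraries thus held 93.6% of its counts. Pax5, the transcription factor that keeps B cell identity, reached 89.8 to 214 CPM there and at most 3.25 CPM elsewhere, with 93.3% of its counts in the 4. Ms4a1, which encodes CD20, lay at 32.6 to 89.2 CPM against at most 4.55 CPM. Blk, a B cell tyrosine kinase, was at 10.8 to 34.9 CPM against at most 3.20 CPM, and 27 of the other 36 libraries had no count. HFD libraries had 0 Blk counts in all, which allows up to 3 counts or 0.092 CPM over the group, for counting error only.

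Cd22, an inhibitory co-receptor, Fcrla, an Fc receptor-like protein, and Fcer2a, the low-affinity IgE receptor, had 83.5 to 85.7% of their counts in the 4 libraries. Cd79b, the partner of CD79A, had 82.8%, and Ighd, the constant region of the IgD heavy chain, 86.8%. Cr2, complement receptor 2 of B cells and follicular dendritic cells, had 65.2%, the lowest share after Cd37 and Ighm. Cd37, a tetraspanin of leukocytes, had 47.0% of its counts there and lay at 10.3 to 43.3 CPM in the other libraries. Cd37 overlaps Tead2, and 11 of the 35 genes overlap another gene of the table, from which reads may not be told apart.

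For the T cell genes the mean in the 4 libraries was at most 30.7 times that elsewhere (Cd4). Of the B cell genes only Cr2 (17.4), Cd37 (7.74) and Ighm (2.84) had a ratio below that of Cd4. Trbc2, a constant region of the T cell receptor beta chain, lay at 67.0 to 270 CPM in the 4 libraries and at most at 19.6 CPM elsewhere. Reads of Trbc2 and its close copy Trbc1 may have been split. Cd3e, a signalling chain of the T cell receptor, lay at 19.6 to 87.2 CPM against at most 6.57 CPM. Cd4, the co-receptor of helper T cells, lay at 8.96 to 54.4 CPM against at most 2.86 CPM, and Cd8a, that of cytotoxic T cells, at 7.85 to 36.9 CPM against at most 4.12 CPM. The remaining CD3 chains Cd3d and Cd3g, the co-receptor chain Cd8b1, and Cd5, a damper of T cell receptor signals, also had over 50% of their counts in the 4.

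Lck, the kinase that starts T cell receptor signalling, had 65.8% of its counts in the 4 libraries, and Zap70, the kinase that follows it, 53.5%. Il7r, the receptor of the survival cytokine IL-7, had 43.7%, the adhesion gene Cd2 46.8% and the co-stimulatory receptor Cd28 43.5%. These 3 were thus mostly counted outside the 4, although each of the 4 libraries exceeded all others in them. Foxp3, the factor of regulatory T cells, was sparse. It lay at 3.69 CPM in ND 5 and at 0.224 CPM in semaglutide 3, reached 4.73 CPM in 1 of the other lymphoid-rich libraries, and had 0 counts in HFD, which allows up to 0.092 CPM over the group.

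Among the homing genes, Ccl21a, the chemokine of lymph node stroma and venules, lay at 135 to 342 CPM in the 4 libraries and at most at 22.1 CPM elsewhere. Near-identical copies of Ccl21a in the mouse genome make its count uncertain. Ccl19, its partner chemokine, lay at 13.7 to 42.6 CPM against at most 4.27 CPM. Ccr7, the receptor of both, lay at 17.0 to 66.7 CPM against at most 4.28 CPM. Ltb, the lymphotoxin chain that organises lymphoid tissue, lay at 21.7 to 86.4 CPM against at most 6.94 CPM. Cxcr5, the receptor that guides B cells into follicles, lay at 1.12 to 16.5 CPM against at most 1.497 CPM, so its ranges overlap.

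The 3 cytotoxic and NK cell genes overlapped between the 4 libraries and the rest. Nkg7, a granule protein, lay at 9.86 to 29.3 CPM in the 4 libraries and up to 15.8 CPM elsewhere. Klrd1, which encodes the NK receptor CD94, lay at 3.19 to 13.1 CPM against up to 6.92 CPM. Gzma, a granule protease, lay at 0.981 to 2.84 CPM in the 4 and at a median of 2.59 CPM in the others. Its mean in the 4 was 0.576 times its mean elsewhere, and 5.98% of its counts came from them. A list of 15 other cytotoxic and NK cell genes did not overlap, at 116 to 391 CPM in the 4 libraries and 17.5 to 108 CPM elsewhere. Of that sum Ccl5, a chemokine of T and NK cells, made up 72.4 to 276 CPM in the 4, and Ncr1, an activating receptor of NK cells, 0 to 3.41 CPM.

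Other marker lists were summed in the same way, and some but not all were higher in the 4 libraries. The lymph node stroma and high endothelial venule list (13 genes) summed to 140 to 333 CPM there, against 29.1 to 67.0 CPM in the other 36. The dendritic cell list (10 genes) summed to 142 to 295 CPM against 65.9 to 147 CPM, so its ranges overlap. The plasma cell list (12 genes) summed to 91.5 to 426 CPM against 10.9 to 57.8 CPM. The germinal centre list (8 genes) lay at 43.7 to 62.7 CPM, inside the range of 38.7 to 87.2 CPM elsewhere. The macrophage and skeletal muscle lists lay inside the range of the other libraries too. So did the lymphatic endothelium list (8 genes), at 64.5 to 128 CPM against 24.2 to 149 CPM. The adipose regulatory T cell and innate lymphoid list (9 genes) was not raised, at 91.1 to 171 CPM against 95.6 to 198 CPM. The adipocyte list (10 genes) had a lower median, 16516 against 23122 CPM, but its ranges overlap, at 13250 to 19980 CPM against 16465 to 32778 CPM. ND 5 (13250 CPM) and semaglutide 1 (16207 CPM) lay below every other library, and semaglutide 3 and 8 did not. The part of these components in the differences between groups was not tested.

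**Figure D3:**
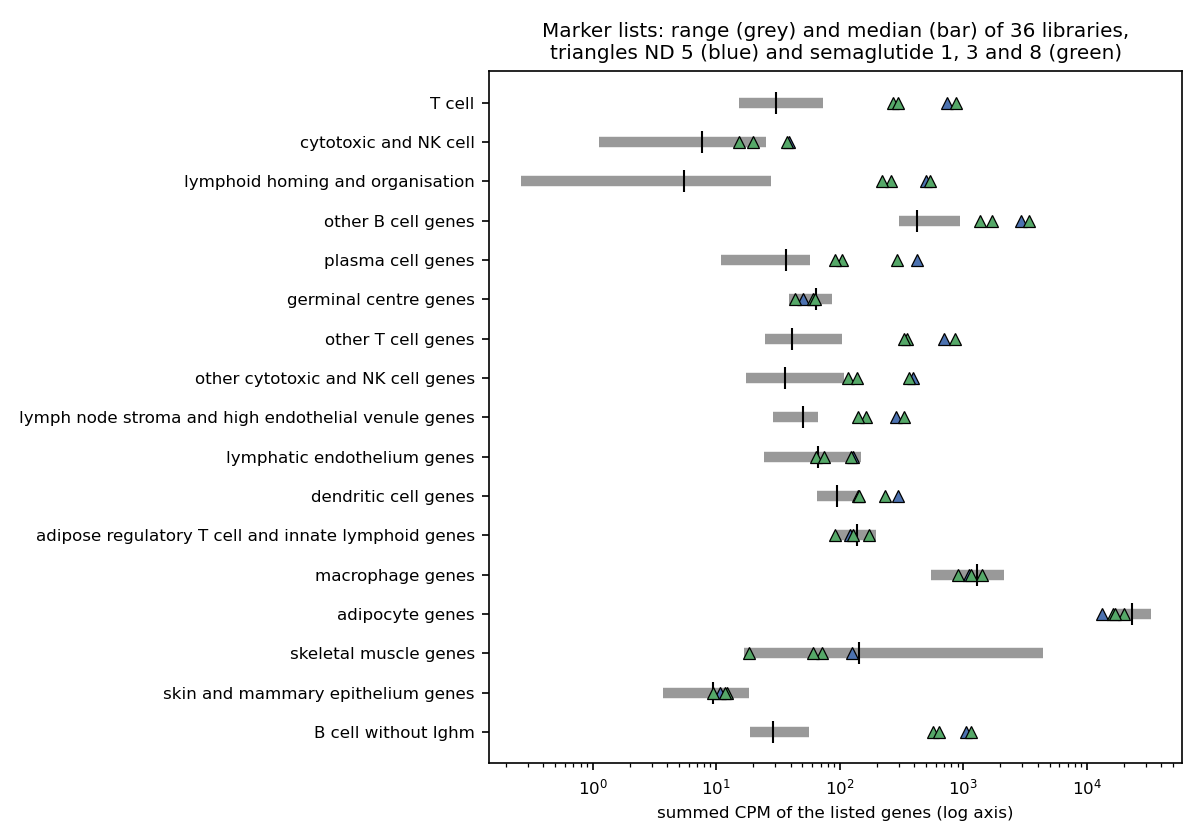
Summed CPM of marker lists on a log axis. Grey bars are the range and black bars the median of 36 libraries, and triangles are ND 5 (blue) and semaglutide 1, 3 and 8 (green). T cell, homing, plasma cell and lymph node stroma lists lie above the grey range in the 4 libraries, and macrophage, muscle and germinal centre lists lie within it.

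Genes with the most similar pattern over the 40 libraries were other leukocyte genes. The mean of the 12 B cell genes correlated most with Mir142hg (Pearson r = 0.933), the host gene of a leukocyte microRNA, Bank1 (0.907), a B cell adaptor, and Limd2 (0.902). They were followed by H2-DMb2, Ptprc, Bcl11a, H2-Ob, Ripor2, Arhgap15 and Napsa, down to 0.884. Over the 36 libraries the highest value was 0.604, for Gm17201, so the similarity over 40 rests on the 4 libraries. The T cell mean correlated most with Ccl5 (0.923), a chemokine of T and NK cells, over 40 libraries. Over 36 libraries it correlated most with Ms4a4b (0.708), a T cell membrane protein, and again Ccl5 (0.696). These values describe libraries that share group means, and carry no test.

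In the comparisons between groups, 20 of the 35 genes passed the filter on low counts and were tested among 15807 genes. The 15 others were Cd79a, Ms4a1, Cd22, Fcrla, Pax5, Blk, Fcer2a, Cd3g, Cd4, Cd8a, Cd5, Zap70, Foxp3, Cxcr5 and Ccl19. Log2 fold changes are given with their SE, and a gene was called at an edgeR adjusted p under 0.05 over all tested genes. Every comparison was run with all 40 libraries and without the 4 lymphoid-rich ones. Cd79b, Cd3d, Ccr7 and Ltb passed the filter only with the 4 libraries, in which they were high, so their calls and any count that holds them are a description. Without the 4, 16 genes were tested, and values of these 4 genes come from a further fit, added after seeing the data, that keeps the same 20 genes. Leaving out libraries for their high lymphocyte genes itself fixes part of the direction in the groups they came from.

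With semaglutide, 8 of the 20 genes rose against HFD and none fell, while 1.52% of all tested genes rose. The 8 were Cr2, Cd37, Ighd, Cd28 and Icos, and 3 of the genes that passed the filter only through the 4 libraries, Cd79b, Ccr7 and Ltb. Ltb lay at 0 CPM (lowest), 0.732 (median) and 2.80 (highest) in HFD, and at 0, 2.54 and 86.4 CPM with semaglutide. It rose by 4.22 ± 1.18 (log2, edgeR adjusted p = 0.0330), although 5 of the 8 semaglutide libraries reached at most 3.46 CPM. Ighd lay at 0.325, 2.84 and 5.42 CPM in HFD and at 0.283, 3.29 and 145 CPM with semaglutide, a change of 3.87 ± 1.09 (edgeR adjusted p = 0.0345). The smallest of the 8 changes was that of Cd37, 1.80 ± 0.53, and the groups overlapped for each of the 3.

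Without the 4 libraries, none of the 5 genes still tested was called, and none of the 8 was when the same 20 genes were kept. The change of Ighd was -0.49 ± 0.68 and that of Cd37 -0.04 ± 0.25. Icos, an inducible co-stimulator of activated T cells, had the largest positive value of the 5, 1.20 ± 0.65 (edgeR adjusted p = 0.437). Cr2 stood at 0.30 ± 0.59. With the same 20 genes kept, Ltb stood at 0.09 ± 0.80 and Ccr7 at 0.75 ± 0.80. Among the 16 genes tested Ighm alone was called, and alone had an unadjusted p under 0.05. It fell, as did 1.73% of all genes tested there. With only semaglutide and HFD libraries in the fit none of the genes was called by edgeR, where 7.3% of all tested genes were, and without semaglutide 1 alone none was either.

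Tirzepatide against semaglutide shares the semaglutide libraries with the comparison above, so the calls of both are given side by side and are not independent. Cd79b, Ighm, Ighd, Cd3d, Icos, Trbc2, Ccr7 and Ccl21a were lower with tirzepatide, 8 of 20 genes, where 5.92% of all tested genes were lower. Of the 8, Cd79b, Cd3d and Ccr7 passed the filter only through the 4 libraries. Ccl21a lay at 0.295, 1.505 and 12.3 CPM with tirzepatide and at 0, 7.83 and 328 CPM with semaglutide, a change of -4.91 ± 1.32 (edgeR adjusted p = 0.0168). Ighd changed by -5.08 ± 1.21 (edgeR adjusted p = 0.00756). Without the 4 libraries, 0 of 16 genes were called by edgeR, 2 of them at an unadjusted p under 0.05, where 5.84% of all tested genes were called. Ccl21a then stood at -0.31 ± 1.02 and Ighd at -0.66 ± 0.70.

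**Figure D4:**
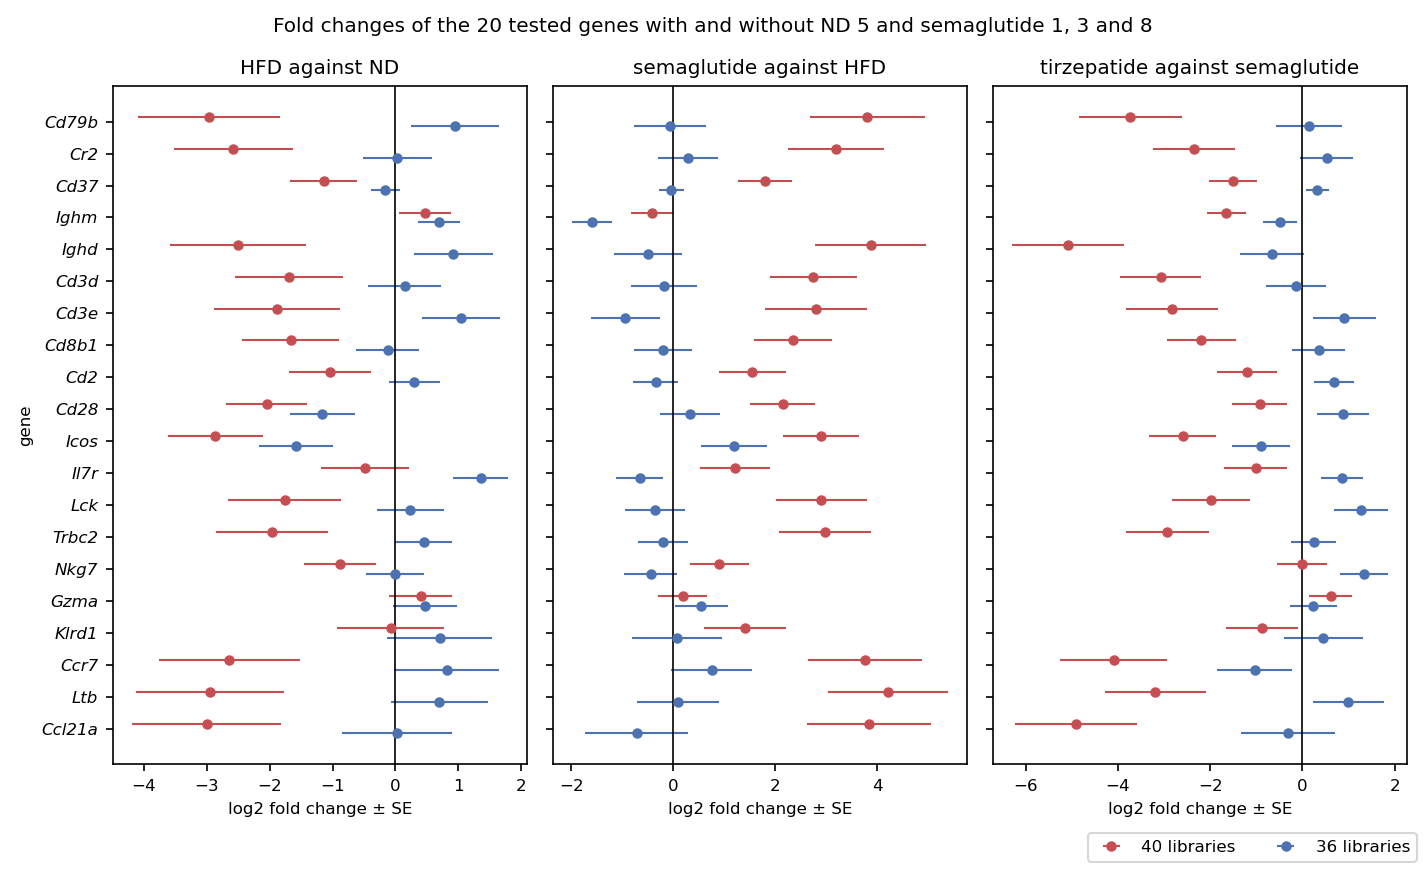
Log2 fold changes (points) with SE (bars) of the 20 tested genes in 3 comparisons, from all 40 libraries (red) and from the 36 without ND 5 and semaglutide 1, 3 and 8 (blue), with the same genes tested. Most red points lie away from 0 and most blue ones near it, and Ighm is the exception with semaglutide against HFD.

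On HFD, 1 of the 20 genes fell against ND, where 1.68% of all tested genes fell. Icos lay at 0, 1.15 and 1.35 CPM in HFD and at 0.255, 3.496 and 34.4 CPM in ND. It fell by 2.86 on the log2 scale on HFD (SE 0.75, edgeR adjusted p = 0.0158). Without the 4 libraries the ND values were 0.255, 3.25 and 5.19 CPM, and the change was -1.59 ± 0.60 (edgeR adjusted p = 0.135). No gene of the 16 was then called by edgeR, 4 of them at an unadjusted p under 0.05, where 4.71% of all tested genes were called. Without ND 5 alone none was called either. Il7r stood at 1.36 ± 0.43 in these libraries (edgeR adjusted p = 0.0583).

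Ighm, the constant region of the IgM heavy chain (chr12:113418558-113422730, minus strand, mm10), was mostly counted outside the 4 libraries. Its mean in the 4 was 2.84 times that elsewhere, and they held 24.4% of its counts. In HFD it lay at 507, 525, 523, 502, 660, 516, 468 and 624 CPM in libraries 1 to 8. With tirzepatide it lay at 263, 105, 77.7, 88.9, 129, 61.1, 64.8 and 245 CPM. After the diet switch its lowest, median and highest values were 34.96, 130 and 298 CPM. All 8 tirzepatide and all 8 diet-switch libraries thus lay below the lowest HFD library.

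Ighm fell by 2.07 with tirzepatide on the log2 scale (SE 0.43, edgeR adjusted p = 0.000784). It was the only one of the 20 genes called there, where 10.7% of all tested genes fell. It fell by 1.86 after the switch (SE 0.43, edgeR adjusted p = 0.0018), again alone, where 10.9% fell. Both calls held with each of the 40 libraries left out in turn and in each of the other alternative fits. The highest edgeR adjusted p was 0.0484 with tirzepatide, without 11 libraries high in muscle genes, and 0.0483 after the switch, without diet-switch 3, 4 and 7. Without the 4 lymphoid-rich libraries the changes were -2.08 ± 0.34 and -1.87 ± 0.33, and 11.8% of all genes tested fell with tirzepatide. With other B cell genes as a covariate, Ighd fell too with tirzepatide, by 1.31 (SE 0.50, edgeR adjusted p = 0.0493). In that fit Cd28 rose by 1.22 ± 0.45 (edgeR adjusted p = 0.0429). Both lay close to the threshold. Without the covariate, with all 40 libraries, neither was called (edgeR adjusted p = 0.555 and 0.185).

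For semaglutide the call depends on the 4 libraries and on the method. The 5 other semaglutide libraries lay at 80.8 to 249 CPM, all below the lowest HFD library, while libraries 1, 3 and 8 lay at 1201, 654 and 479 CPM. With all libraries Ighm stood at -0.42 ± 0.41 against HFD (edgeR adjusted p = 0.624). It fell without the 4 libraries, by 1.59 (SE 0.39, edgeR adjusted p = 0.0199). Libraries 1, 3 and 8 were the highest in Ighm within the group, so leaving them out fixes part of this fall. With the mean of other B cell genes as a covariate Ighm fell by 1.46 (SE 0.35, edgeR adjusted p = 0.0147). Those genes summed to 3404, 1354 and 1696 CPM in libraries 1, 3 and 8, and to 335 to 452 CPM in the other semaglutide libraries. The covariate thus marks the same libraries, and it is not separate support. With all 40 libraries, limma-voom with quality weights called Ighm lower, by 1.28 (SE 0.28, limma-voom adjusted p = 0.00214). Between tirzepatide and semaglutide it was lower by 1.65 in all libraries, and stood at -0.49 ± 0.37 without the 4 (edgeR adjusted p = 0.473).

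In ND, Ighm lay at 143 to 519 CPM in the 7 libraries other than ND 5, and 6 of these were below the lowest HFD library. HFD against ND stood at 0.47 ± 0.41 with all libraries and at 0.69 ± 0.34 without the 4 (edgeR adjusted p = 0.301), so no difference was called. By the median over 36 libraries the order was HFD (520 CPM), ND (338), semaglutide (204), diet switch (130) and tirzepatide (96.9). The ranges of ND and semaglutide, of semaglutide and the switch, and of the switch and tirzepatide overlapped.

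**Figure D5:**
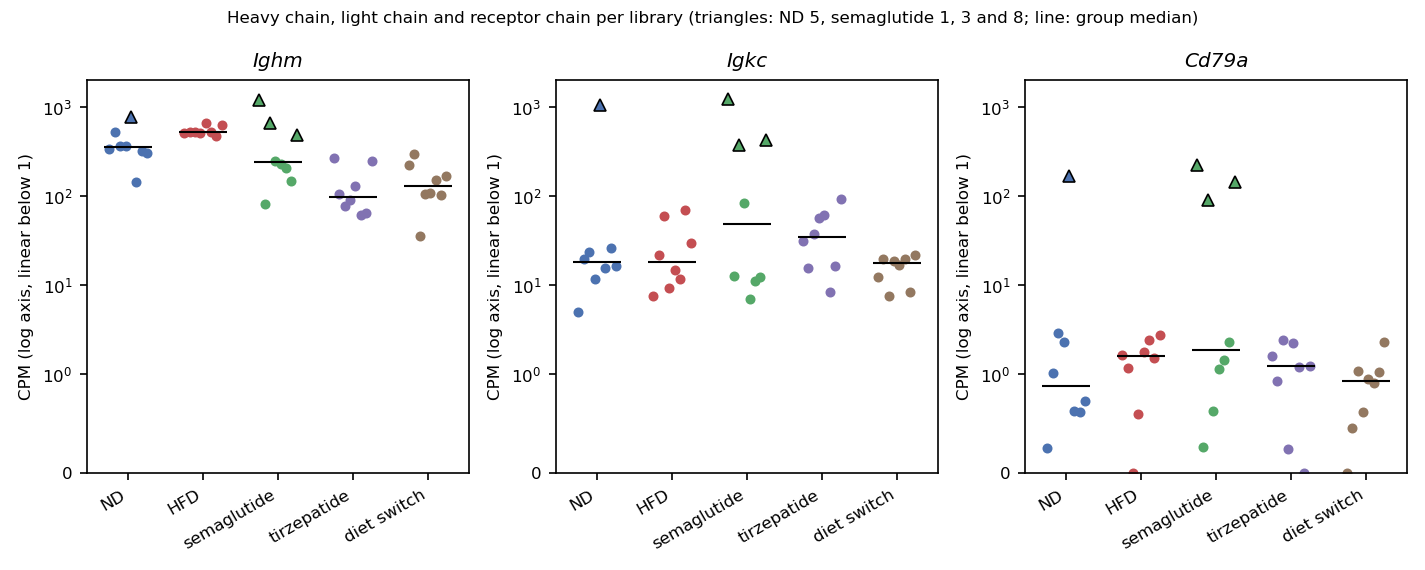
CPM per library of Ighm, of the light chain Igkc and of the receptor chain Cd79a, by group (log axis, linear below 1). Triangles are ND 5 and semaglutide 1, 3 and 8, and lines are group medians. Ighm is high in HFD (468 to 660 CPM) and low with tirzepatide and after the switch, while Igkc and Cd79a are far higher in the 4 triangles than elsewhere.

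The light chain overlapped between HFD, tirzepatide and the switch. Igkc, the kappa light chain constant region, lay at 7.48 to 68.5 CPM in HFD, at 8.39 to 93.2 CPM with tirzepatide and at 7.43 to 21.8 CPM after the switch. The ratio of Ighm to Igkc CPM within a library was 0.733 to 1.76 in the 4 lymphoid-rich libraries. In the other 36 it ran from 1.56 to 67.8, with a median of 10.5. Over those 36 libraries the correlation of Ighm with the other 34 genes ran from -0.477 (Cr2) to 0.543 (Cd4), and it was 0.186 with Cd79a.

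The 10 genes most similar to Ighm over the 36 libraries held none of the listed lymphocyte genes. This comparison was chosen after the values of Ighm were seen. Cyb5b, a cytochrome of the outer mitochondrial membrane, had r = 0.907, Col15a1, a basement membrane collagen, 0.905, and Dgat2, an enzyme of triglyceride synthesis, 0.882. The others were H2bc4, H3c15, Cavin3, Gm26549, Higd2a, Hfe and Surf4, at 0.850 to 0.886. After subtracting group means Cyb5b, Col15a1 and Dgat2 stood at 0.726, 0.771 and 0.724. Group differences are part of the first values, and no test was made.

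Cr2 was the only gene of the 35 called as higher after the diet switch in the fit of 36 libraries, and none was with all 40. It lay at 0, 2.50 and 4.49 CPM in HFD and at 0.848, 5.15 and 10.2 CPM after the switch, with overlap. Its change was 1.43 ± 0.96 with all 40 libraries (edgeR adjusted p = 0.292) and 1.42 ± 0.50 with 36 (edgeR adjusted p = 0.0320), where 25.6% of tested genes were called. The change was nearly the same and the SE was smaller. With other B cell genes as a covariate it rose by 1.70 ± 0.51. Without diet-switch libraries 3, 4 and 7 it stood at 0.69 ± 1.15.

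The cytotoxic and NK cell genes did not pass the test between tirzepatide and HFD with all 40 libraries. Nkg7 lay at 0.651, 3.02 and 8.52 CPM in HFD and at 2.06, 6.50 and 15.8 CPM with tirzepatide, a difference of 0.90 ± 0.58. Gzma stood at 0.81 ± 0.47 and Klrd1 at 0.53 ± 0.81 in the same comparison. With other B cell genes as a covariate Nkg7 was called as higher with tirzepatide than with semaglutide, by 1.32 ± 0.42 (edgeR adjusted p = 0.0394). Without the covariate, with all 40 libraries, it stood at -0.009 ± 0.549 and was not called.

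Some genes of the stroma and of related cells changed with and without the 4 libraries. Il7, the survival cytokine for lymphocytes read by Il7r, lay at 1.63, 2.93 and 4.61 CPM in HFD and at 2.50, 6.77 and 21.3 CPM in ND. It fell on HFD by 1.45 (SE 0.35), and rose against HFD with semaglutide by 1.57 ± 0.35, with tirzepatide by 1.27 ± 0.35 and after the switch by 1.28 ± 0.35. Without the 4 libraries it fell by 1.04 on HFD (edgeR adjusted p = 0.0459) and rose by 1.26 with tirzepatide and by 1.26 after the switch, and the semaglutide call was lost. Of the 13 genes of that list 5 were tested. On HFD 2 fell (1.68% of all tested genes did) and with semaglutide 2 rose (1.52%). With tirzepatide 1 rose, where 9.79% of all tested genes did. After the switch 2 rose and 1 fell, where 12.8% and 10.9% of all tested genes did.

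Cxcl13, the chemokine that draws B cells into follicles, lay at 0.561, 2.35 and 6.50 CPM in HFD and at 3.11, 9.29 and 39.1 CPM after the switch. It rose by 2.22 ± 0.59 there (edgeR adjusted p = 0.0060), and by 2.21 ± 0.46 without the 4 libraries. Its fall on HFD, by 2.09, and its rise with semaglutide, by 2.18, were called only with them. Ikzf2, which encodes Helios and is found in regulatory T cells among others, lay at 5.68 to 13.8 CPM in HFD. It fell on HFD by 1.21 and rose with semaglutide by 1.21, with tirzepatide by 1.11 and after the switch by 1.09. Of all tested genes 1.68% fell on HFD, and 1.52%, 9.79% and 12.8% rose in the other 3 comparisons. Ikzf2 is 1 of the 9 genes of the adipose regulatory T cell and innate lymphoid list. It was named by its adjusted p and does not stand for that list. All 4 calls held without the 4 libraries.

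In the plasma cell list, 5 of 12 genes were tested, and 2 fell after the switch, where 10.9% of all tested genes fell. Igha, the IgA heavy chain constant region, lay at 2.09, 4.79 and 12.5 CPM in HFD and at 0, 0 and 4.89 CPM after the switch. It fell by 3.10 on the log2 scale (SE 0.72, edgeR adjusted p = 0.0019), and by 3.12 without the 4 libraries. Prdm1, the factor that drives plasma cell formation, fell by 1.06 (SE 0.36). In the other T cell list 12 of 20 genes were tested, and with all libraries 1 rose with semaglutide, where 1.52% of all tested genes rose. In the same list 4 were lower with tirzepatide than with semaglutide, where 5.92% of all tested genes were. Both counts come from all libraries, and this list summed to 852, 350 and 331 CPM in semaglutide 1, 3 and 8. The other semaglutide libraries lay at 31.9 to 45.6 CPM and the tirzepatide libraries at 40.4 to 90.5 CPM. Both counts are thus a description.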

How the data were processed

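RNA of 40 samples was counted at transcript ends (LexoGen QuantSeq, per the labels' protocols). The authors deposited raw counts per gene symbol, made with genome build mm10 per the submitters' processing notes. Aligner, counter, annotation and strand setting: not given in the sources used here. A second, normalized table was not used; 16 of its columns match no sample of the series. Of 34843 symbols, 630 had no count. The edgeR filter filterByExpr kept 15807 genes with 99.4% of counts, and 16429 without the 4 lymphoid-rich libraries.

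Counts were fitted with edgeR 4.0.16 (TMM, quasi-likelihood, robust, 1 mean per group, 40 libraries in 1 fit) under R 4.3.3, with Benjamini-Hochberg adjustment over all tested genes and calls at 0.05. Scores are mean log2 CPM with a prior count of 2. Coordinates are GENCODE M21. The procedure was tested on simulated data. Alternatives used DESeq2 1.42.0, limma-voom 3.58.1, other filters and factors, library sets left out and each library left out in turn. One alternative, which holds the tested genes fixed without the 4 libraries, was added after seeing the data. The text names all 35 genes, up to 4 genes of each other list with the smallest adjusted p, and the 10 most correlated genes. Members and lists were chosen with earlier results of these data known. No 2 libraries of a group were copies (smallest chi-square per degree of freedom 4.07). Floors cover counting error only, while the SE of a fold change covers the spread among the libraries of its fit.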

Additional observations from a re-analysis of the deposited data

Results flagged for a closer look

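ND library 5 lay far from the other 7 ND libraries in 3 scores, each a mean of log2 CPM over the genes of a class. Its B cell score was 6.59, with the next ND library at 1.89. Its T cell score was 5.19, with the next at 1.44, and its homing score was 5.73, with the next at 0.75. In groups of 8, chance marks about 1 in 20 groups in this way, but this rate does not apply here, because ND 5 was known to be high in these genes from earlier results. The values are a description. The semaglutide group has 3 high libraries, and a test for a single far library does not mark these.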

How the results depend on the processing

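The number of the 35 genes called depended on the settings in the comparisons that hold lymphoid-rich libraries. For HFD against ND it was 1, and it was 0 with only the 2 groups, the replicate block, limma-voom, without the 4 libraries (also with the tested genes held) and without 11 muscle-high libraries, and 3 with DESeq2. For semaglutide against HFD it was 8, and 0 with only the 2 groups or without the muscle-high libraries, 2 with the replicate block, 13 with DESeq2, and 1 with the B cell covariate, limma-voom or without the 4 libraries (also with the tested genes held). For tirzepatide against semaglutide it was 8, and 1 with only the 2 groups, the covariate or limma-voom, 5 with the replicate block, 13 with DESeq2, and 0 without the 4 libraries, with the tested genes held or without the muscle-high libraries. The covariate gave 3 with tirzepatide against HFD, and 2 after the switch, as did leaving out the 4 libraries (also with the tested genes held). With each library left out, the ranges were 0 to 2 (HFD against ND), 0 to 14 (semaglutide against HFD) and 2 to 13 (tirzepatide against semaglutide). The count for semaglutide against HFD moved by over 1.5 times for 20 of the 40 libraries, among them every HFD library, and rose to 14 without ND 5 or semaglutide 5. The count for tirzepatide against semaglutide was 2 without semaglutide 1 and 13 without ND 5 or semaglutide 6. For HFD against ND it was 2 without ND 1, ND 4, HFD 7, semaglutide 1 or tirzepatide 8. The cause of these shifts was not tested. Over all genes, the number called stayed within 1.5 times of the main number in every setting not given in the next paragraph. Shares of all tested genes are not printed for each setting, so these counts describe the 35 genes alone.

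Over all genes, limma-voom called 1308 against 712 on HFD. For semaglutide against HFD 656 became 1013 with only the 2 groups, 365 with the covariate, 1287 with limma-voom, 412 without the 4 libraries and 415 with the tested genes held, and 437 to 895 with 1 library left out (437 without HFD 5). Without the muscle-high libraries tirzepatide against HFD had 1145 (3246 in all) and tirzepatide against semaglutide 225 (1584 in all), the latter 959 or 981 without the 4 libraries. Without diet-switch 3, 4 and 7 the switch had 1148 (3759 in all). Directions turned for Cd79b with semaglutide (-0.092 with the covariate, -0.060 without the 4 and with the tested genes held), Cd37 (-0.036 without the 4) and Ighd (-0.31 with the covariate, -0.49 without the 4), and against semaglutide with tirzepatide for Cd79b (0.088 and 0.14 in the same fits) and Trbc2 (0.14 with the covariate, 0.24 without the 4).

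With a prior count of 0.5 in place of 2, mean scores shifted with the scale. The B cell score was 0.755 in HFD, 0.637 with tirzepatide and 0.779 after the switch. The T cell score was 0.429, 0.534 and 0.157, the homing score -0.148, -0.267 and -0.819, and the cytotoxic score in HFD 0.769. Whether library numbers pair the samples is not known. Same-numbered libraries correlated at a median of 0.0314 in their deviations from group means, over 80 pairs, and differently numbered ones at -0.00454. Of 40 libraries, 9 correlated best with their own number. Little sign of pairing was thus seen, but pairing was not excluded. With the replicate block, Ighm stood at -2.27 with tirzepatide and -1.94 after the switch. Most of the 35 genes had few counts outside the 4 libraries, which limits what could be called.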

Other observations

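Single genes of the other lists were also called. Siglech, a receptor of plasmacytoid dendritic cells, lay at 0.299, 0.923 and 5.69 CPM in HFD and at 2.08, 5.15 and 25.6 CPM in ND, and fell on HFD by 2.06 (SE 0.52, edgeR adjusted p = 0.0115). Without the 4 libraries it fell by 1.51 and rose after the switch by 1.30 ± 0.42. Ubash3a, a damper of T cell receptor signals, rose on HFD by 1.31 ± 0.37 without the 4 libraries, and fell against HFD with semaglutide by 1.65 and with tirzepatide by 1.05. Il2rb, the receptor chain for IL-2 and IL-15, rose with tirzepatide by 1.03 ± 0.38 in the same fit. Fas, a death receptor listed with the germinal centre genes, fell with tirzepatide by 0.95 (SE 0.22). Siglech, Ubash3a, Il2rb and Fas are 1 gene each of lists of 10, 20, 15 and 8 genes. With all libraries 1.68% of tested genes fell on HFD, and 10.7% fell and 9.79% rose with tirzepatide. Without the 4 libraries 4.71% were called on HFD and 25.6% after the switch, in either direction. There 1.73% fell with semaglutide and 11.8% with tirzepatide. These genes were named by their calls and do not stand for their lists, and no explanation was tested.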
